A study of Mus musculus with 31 samples.

Results

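The cells described here are the 50 cells that the authors named VEC in a single-cell ATAC-seq library of non-neuronal cells from the uninjured spinal cord of C57BL/6 mice. They were taken from the authors' cell table by that name and make up 50 of its 1084 cells. ATAC-seq cuts open chromatin with a transposase, and the deposited matrix gives the cut sites of each cell in 96670 peaks on the mm10 build. The cells were obtained by tissue digestion and flow cytometry, and for this library the labels give neither a genotype, age or sex nor the number of animals. The other classes in the table are PER (40 cells), EP1 (301), EP2 (290), EP3 (163), ACNT1 (111), ACNT2 (62) and OPC (67). The last 6 are called the glial classes here and hold 994 cells. The labels do not spell these names out. With 1 library there is no replicate, so every difference below is a description of these cells, with intervals at the 95% level that cover counting error only, and no test was made. Since 89.9% of the matrix's entries are even, the cut sites of a fragment mostly come in pairs and the intervals are too narrow. The authors formed the classes on these same cells, so a difference between VEC and another class follows in part from how the classes were made. Further below, 2 bulk RNA libraries named Foxj1_tdT_Uninj, of ependymal cells sorted from uninjured cord, are set beside these cells.

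Endothelial cells line the blood vessels. In the spinal cord, as in the brain, they are joined by tight junctions, carry nutrients across with dedicated transporters and are wrapped by pericytes, which together form the blood-brain barrier and its spinal counterpart. Their identity rests on transcription factors of the ETS, SOX and FOX families, on receptors for VEGF and angiopoietin, and on Wnt signalling from the neural tissue through beta-catenin and its partners Lef1 and Tcf7.

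The VEC cells were the shallowest of the 8 classes. They had a median of 7249.5 cut sites in peaks, between 1931 and 38215, against a median of 20075.5 in PER and of 10137 to 46787.5 in the glial classes. In all, VEC held 456548 cut sites, against 942348 in PER and 30808614 in the glial classes. EP2 alone gave 47.5% of all cut sites in the library. Levels are given as cut sites scaled to a total of 1000000 cut sites in peaks per class (CPM), so 1 cut is worth 2.19 CPM in VEC and 1.06 CPM in PER. In VEC a median of 55.2% of fragments fell in peaks, in PER 56.4% and in the glial classes 63.2% to 77.6%. The median TSS enrichment, the excess of cuts at transcription starts, was 7.70 in VEC, 5.64 in PER and between 4.48 and 7.44 in the glial classes. Of the VEC cut sites, 64.3% lay in peaks within 2 kb of an end of a protein-coding gene, against 61.0% in PER and 47.9% in the glial classes. Levels near an average gene were also higher in VEC than in glia on the CPM scale: the median ratio over the genes compared was 1.47 (log2 0.56) for VEC over glia and 1.05 (log2 0.07) for VEC over PER. The part of depth and of this scale in the results below was not tested beyond the other scalings given below. No cell barcode occurred more than once.

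Cldn5, the tight junction protein claudin-5, Flt1, the VEGF receptor VEGFR1, and Pecam1, the adhesion molecule CD31, were the markers by which the name was checked. A gene's level is the sum of cut sites in peaks within 2 kb of either of its ends. At Cldn5 that was 147 CPM in VEC (interval 114 to 186, 67 cuts in 19 cells), against 8.49 CPM in PER (3.67 to 16.7) and 2.04 CPM in the glial classes, where single classes ranged between 1.31 and 7.87. The single peak over the Cldn5 start at chr16:18776067-18777851 carried all of it. Flt1 had 96.4 CPM in VEC (70.0 to 129), against 10.6 CPM in PER (5.09 to 19.5) and 2.92 CPM in the glial classes. Both genes stood apart from every other class by more than their counting intervals. For Pecam1 no peak lay within 2 kb of the gene's ends, but 4 peaks lay inside it. The strongest, at chr11:106659420-106660991, had 114 CPM in VEC, 4.24 CPM in PER and 21.4 CPM in the glial classes. The 3 markers thus go with the name vascular endothelium.

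The promoters of 5 genes that were open in VEC are shown because the data bear on them directly: each lies in a peak with cuts in VEC. They are the 250 bases before the RefSeq start (GRCm38.p6), 5′ to 3′ on the gene's strand, with capitals where a script found the ETS-type letters GGAAGT or CCGGAAG on either strand. Cldn5 lies at chr16:18776597-18776846 on the plus strand, Flt1 at chr5:147726012-147726261 on the minus strand, Tie1 at chr4:118489850-118490099 on the minus strand, Eng at chr2:32646345-32646594 on the plus strand and Slco1c1 at chr6:141524104-141524353 on the plus strand.
Cldn5: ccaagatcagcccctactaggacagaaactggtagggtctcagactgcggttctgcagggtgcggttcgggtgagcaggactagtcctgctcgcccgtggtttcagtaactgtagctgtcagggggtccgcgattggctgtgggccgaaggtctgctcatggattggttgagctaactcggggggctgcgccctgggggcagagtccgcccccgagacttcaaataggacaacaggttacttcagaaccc
Flt1: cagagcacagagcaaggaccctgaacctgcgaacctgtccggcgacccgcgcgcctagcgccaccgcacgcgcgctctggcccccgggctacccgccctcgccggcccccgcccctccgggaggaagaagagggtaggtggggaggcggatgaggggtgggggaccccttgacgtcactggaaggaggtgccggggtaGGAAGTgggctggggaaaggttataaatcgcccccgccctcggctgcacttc
Tie1: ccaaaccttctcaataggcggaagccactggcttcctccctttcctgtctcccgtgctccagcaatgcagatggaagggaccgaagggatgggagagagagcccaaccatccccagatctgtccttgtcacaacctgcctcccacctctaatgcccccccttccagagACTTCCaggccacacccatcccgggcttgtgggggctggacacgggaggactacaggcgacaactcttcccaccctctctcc
Eng: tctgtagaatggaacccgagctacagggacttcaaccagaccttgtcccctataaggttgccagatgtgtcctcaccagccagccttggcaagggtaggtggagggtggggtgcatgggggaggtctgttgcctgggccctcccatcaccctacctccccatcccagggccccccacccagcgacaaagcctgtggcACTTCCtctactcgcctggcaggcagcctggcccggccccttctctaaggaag
Slco1c1: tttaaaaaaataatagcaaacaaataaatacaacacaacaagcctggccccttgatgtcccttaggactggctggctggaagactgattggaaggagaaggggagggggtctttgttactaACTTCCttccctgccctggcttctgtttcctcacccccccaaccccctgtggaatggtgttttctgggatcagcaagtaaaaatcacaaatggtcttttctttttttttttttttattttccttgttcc
The promoters of Flt1, Tie1, Eng and Slco1c1 each hold 1 such run, and that of Cldn5 holds none. The 5 were picked from 10 promoters of genes open in VEC, of which 6 hold a run and 4 do not. In windows of 300 bases GGAAGT stands in 25.1% and CCGGAAG in 11.9% of all promoters, and such a run is a string of letters and not a known site.

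Of 18 markers in the list, 7 had no peak near their ends (Pecam1, Tek, Emcn, Ly6c1, Abcb1a, Ptprb and Vwf) and 4 were too low to enter a comparison (Egfl7, Robo4, Ly6a and Slco1a4). A gene entered where its mean CPM over both sides was at least 20. The 7 that did reached this mainly through VEC, so they had to be high there and their number supports nothing. In each of the 7 the VEC interval lay above those of all other classes. Esam, an adhesion molecule of endothelial junctions, had 261 CPM in VEC (216 to 312), 21.2 CPM in PER and 9.02 CPM in the glial classes. Part of the Esam window is shared with its neighbour Msantd2. Kdr, the main VEGF receptor VEGFR2, had 136 CPM in VEC (104 to 174), 8.49 CPM in PER (3.67 to 16.7) and 29.0 CPM in the glial classes. Kdr was the marker with most glial signal: EP2 had 34.6 CPM and ACNT1 1.69 CPM. Tie1, an endothelial receptor kinase, had 56.9 CPM in VEC (37.2 to 83.4), 0 cuts in PER and 5.78 CPM in the glial classes. The lower bound of the counting interval of its ratio, VEC over PER with PER at 0 cuts, was 13.5. Of the glial cuts at Tie1, 177 lay in the peak at its far end and 1 in the promoter peak, which had 52.6 CPM in VEC. Eng, the TGF-beta co-receptor endoglin, had 59.1 CPM in VEC, 3.18 CPM in PER and 0.26 CPM in the glial classes. Cdh5, the VE-cadherin of endothelial junctions, was lower than these, with 41.6 CPM in VEC (25.1 to 65.0), 7.43 CPM in PER and 5.91 CPM in the glial classes. Of the glial cuts at Cdh5, 178 lay in the peak at chr8:104146248-104146886, which had 2.19 CPM in VEC. The other 4 lay in the peak at chr8:104101388-104101824, which had 39.4 CPM in VEC, 3.18 CPM in PER and 0.13 CPM in the glial classes. Scaled to genes used by every cell, 5 of the 7 were at least 4-fold higher than glia and 7 higher than PER. Over all genes that entered, 3.45% were at least 4-fold higher in VEC than in glia and 1.89% higher than in PER. Summed over the list, VEC had 839 CPM, PER 64.7 CPM and the glial classes 57.6 CPM.

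**Figure D1:**
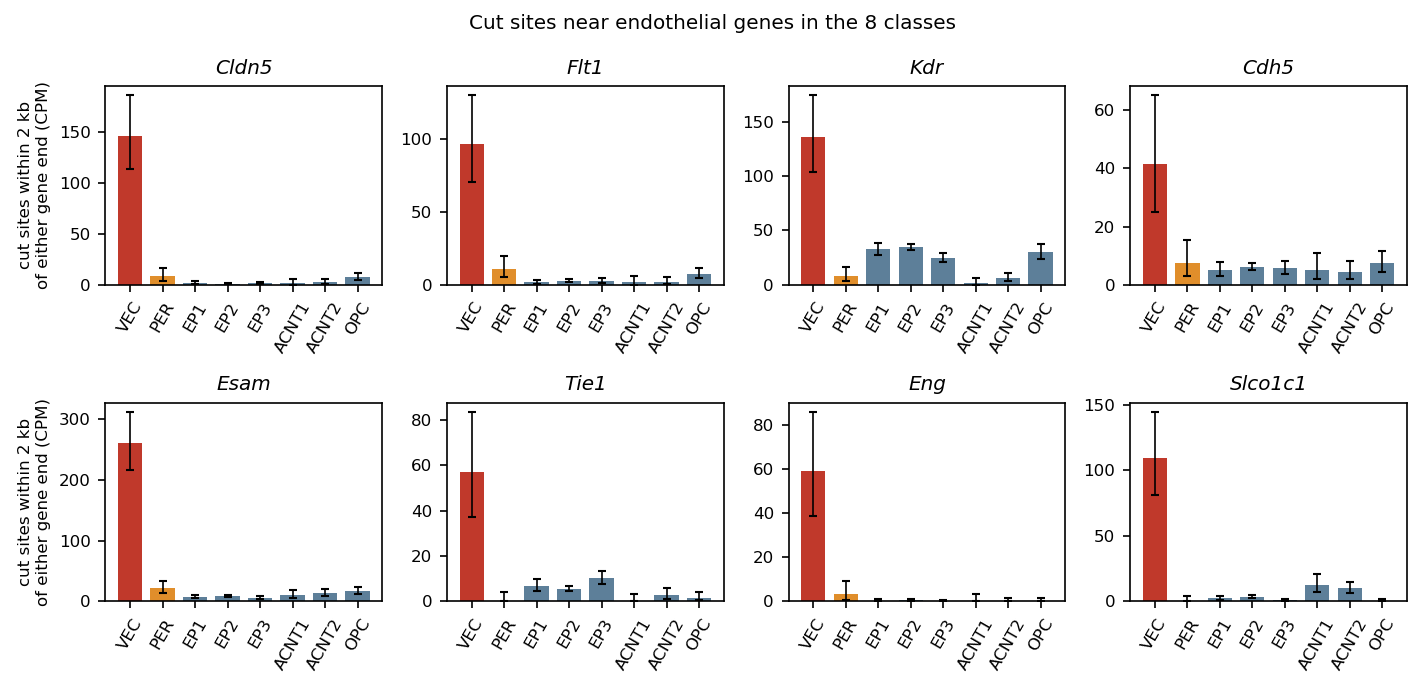
Cut sites (CPM) within 2 kb of either end of 8 endothelial genes in VEC (red), PER (orange) and the 6 glial classes (blue); bars are class totals and error bars are exact Poisson intervals at the 95% level. In all 8 panels the VEC bar is the tallest and its interval overlaps no other, with Kdr carrying the highest glial level (34.6 CPM in EP2).

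Genes of endothelial junctions differed less as a group. Of 16, 10 entered each comparison, 3 were at least 4-fold higher than glia (Cldn5, Esam and Cdh5) and 4 higher than PER, with 0 lower and median ratios of 2.06 over glia and 3.87 over PER. Over all genes 3.45% were higher than glia and 1.89% higher than PER. All 3 junction genes called over glia and 3 of the 4 called over PER had under 20 CPM on the other side. They entered only through VEC, so the counts support nothing about the list. Scaled to genes used by every cell, 2 junction genes were higher than glia and 3 higher than PER. Cdh5 fell below 4-fold, with a ratio of 3.87 over glia on that scale and of 3.78 over PER with each cell scaled first. Ocln, the tight junction protein occludin, had 65.7 CPM in VEC (44.3 to 93.8), 17.0 CPM in PER and 36.6 CPM in the glial classes. Cgn, the scaffold cingulin of epithelial junctions, lay the other way, with 15.3 CPM in VEC (6.16 to 31.6), 34.0 CPM in PER and 28.2 CPM in the glial classes.

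For several markers the signal that set VEC apart lay inside the gene. Kdr had 3 peaks with cuts in VEC. The one over its start at chr5:75976787-75979552 had 85.4 CPM in VEC, 4.24 CPM in PER and 28.8 CPM in the glial classes. The other 2 Kdr peaks had 50.4 and 43.8 CPM in VEC, against 4.24 and 2.12 CPM in PER and 0.16 and 2.47 CPM in the glial classes, so the glial signal at Kdr sat in the start peak. A Flt1 peak inside the gene at chr5:147641157-147641465 had 67.9 CPM in VEC, 0 cuts in PER and 3 cuts in the glial classes. Tek, the angiopoietin receptor TIE2, was open in VEC at 2 internal peaks: chr4:94746475-94746921 had 72.3 CPM in VEC, 13.8 CPM in PER and 0 cuts in the glial classes, and chr4:94829996-94830215 had 39.4 CPM in VEC and 0 cuts in both of the others. Erg, an endothelial ETS factor, had 0 VEC cuts at its ends but 50.4 CPM in VEC at an internal peak (chr16:95448678-95449009), with 0 cuts in PER and 0.78 CPM in the glial classes. Ptprb, the endothelial phosphatase VE-PTP, had 74.5 CPM in VEC at chr10:116301129-116301723, 0 cuts in PER and 1.72 CPM in the glial classes. Vwf and Abcb1a, the genes of von Willebrand factor and of the drug exporter P-glycoprotein, had no internal peak with cuts in at least 5 VEC cells that was 4-fold above both, and the same held for Robo4, a Roundabout receptor of endothelium. Emcn, the endothelial sialomucin endomucin, had 0 VEC cuts at its 2 internal peaks, against 208 and 1 cuts in the glial classes. These genes with strong internal peaks were picked after their values were seen.

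Over all genes, 15416 had a peak within 2 kb of an end. Against PER, 10527 genes entered, of which 199 (1.89%) were at least 4-fold higher in VEC and 399 (3.79%) at least 4-fold lower. Against the glial classes, 10249 entered, of which 354 (3.45%) were at least 4-fold higher in VEC and 508 (4.96%) at least 4-fold lower. Of the 9793 genes that entered both comparisons, 121 (1.24%) were at least 4-fold higher in VEC than in both. Scaled to 13 genes used by every cell, such as Actb and Polr2a, whose ratio of summed levels was 1.33 for VEC over PER and 1.82 for VEC over glia, the counts became 129 higher and 601 lower against PER, and 150 higher and 847 lower against glia. Of the 354 genes higher than glia, 269 had under 20 CPM in glia, and of the 199 higher than PER, 156 had under 20 CPM in PER, so these entered only through VEC. The numbers of genes called thus depend on the filter and the scale, and on both scales more genes were lower than higher at this filter. Against glia this order turned under the other filters and at 2-fold, as given further below.

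**Figure D2:**
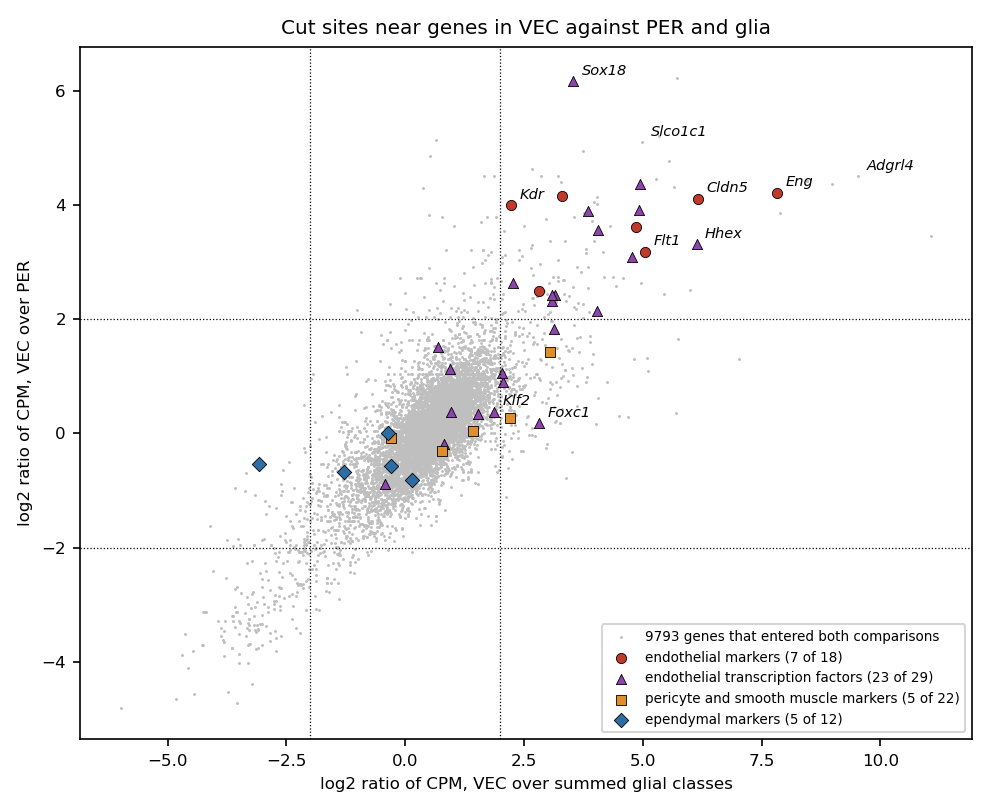
Each point is a gene: the horizontal axis is the log2 ratio of CPM in VEC over the summed glial classes, the vertical axis the log2 ratio of VEC over PER, and dotted lines mark 4-fold. A class at 0 is set to 3 cuts. The 7 endothelial markers (red) and 12 of 23 endothelial transcription factors (purple) lie past 4-fold on both axes, Foxc1 and Klf2 lie near 0 on the vertical axis, and pericyte (orange) and ependymal (blue) markers lie below 4-fold on the vertical axis.

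The genes whose VEC level stood highest above PER, by the lower bound of the ratio, were Slco1c1, Adgrl4, Ctla2a, Tpbpa, Ctla2b, A530016L24Rik (which shares its peak with Tmem179), Tie1, Tmem204, Sox18 and Clec14a. Slco1c1, a transporter of thyroid hormone and organic anions at the blood-brain barrier, had 110 CPM in VEC (81.3 to 144, 15 cells), 0 cuts in PER and 3.44 CPM in the glial classes. Of the glial classes, ACNT1 had 12.7 CPM, ACNT2 9.99 CPM and OPC 0 cuts at Slco1c1. Adgrl4, an adhesion receptor of endothelium known as ELTD1, had 72.3 CPM in VEC (49.8 to 101), 0 cuts in PER and 0.10 CPM in the glial classes, which is 3 cuts. With PER at 0 cuts, the lower bound of the counting interval of VEC over PER was 26.96 for Slco1c1 and 17.4 for Adgrl4. These bounds are too high, since the intervals are too narrow. With each cell counted at most once per peak, the ratio to a floor of 3 cuts in PER was 9.22 for both, and 9.83 for Tie1. Clec14a, an endothelial surface lectin, had 173 CPM in VEC, 6.37 CPM in PER and 3.70 CPM in the glial classes. Among these, OPC had 26.0 CPM and the others 1.18 to 3.63 CPM. A cut near Clec14a was found in 54% of VEC cells and 28.4% of OPC cells, which were deeper. Ctla2a and Tpbpa share their peak, so their 67.9 CPM is 1 value. Against the glial classes the 10 leading genes were Tbxa2r, Adgrl4, Ctla2b, Ctla2a, Tpbpa, Eng, Cd93, Fxyd5, Cldn5 and Hhex. Cd93, a surface receptor of endothelium, had 46.0 CPM in VEC, 0 cuts in PER and 0.19 CPM in the glial classes. Fxyd5, a regulator of the sodium pump, was the one of these less than 4-fold above PER, with 54.8 CPM in VEC, 22.3 CPM in PER and 0.42 CPM in the glial classes. Fxyd5 and Tbxa2r share peaks with Fxyd7 and Cactin.

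At the other end, the genes lowest in VEC against PER were Gli3, Kirrel, Tent5a, Fstl1, Nat14, Efs, Fbn1, Col1a2, Hk2 and Lpar1. All 10 had 0 cuts in VEC, against 78.5 to 110 CPM in PER. Nat14 shares its peak with Ssc5d and Zfp628. Gli3, a transcription factor of Hedgehog signalling, had 110 CPM in PER. With VEC at 0 cuts, the lower bound of the counting interval of its fold, PER over VEC, was 13.4. Col1a2 and Fbn1, a fibrillar collagen and fibrillin, are matrix genes of mesenchymal cells and had 81.7 and 82.8 CPM in PER. Against the glial classes the lowest were Rfx4, Rgma, Ccdc190, Slc25a18, Sox1, Dzip1l, Nol4, Tent5a, Ltbp3 and Fat3, of which Rgma, Slc25a18 and Ltbp3 share peaks with neighbouring genes. Rfx4, a factor of neural and ciliated cells, had 0 cuts in VEC, 19.1 CPM in PER and 147 CPM in the glial classes. The same lower bound of its fold, glia over VEC, was 18.2. Sox1, a neural progenitor factor, had 4.38 CPM in VEC (2 cuts), 23.3 CPM in PER and 227 CPM in the glial classes.

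Many transcription factor genes of endothelium were more open in VEC. Of 29 in the list, 28 had a peak and 24 entered against glia, of which 16 were at least 4-fold higher in VEC and 0 at least 4-fold lower, with a median ratio of 7.77 against 1.47 over all genes. Against PER 23 entered, 12 were at least 4-fold higher and 0 lower, with a median of 4.45 against 1.05. Over all genes 3.45% were higher than glia and 1.89% higher than PER. Of the 24, however, 14 had under 20 CPM in glia, as had 11 of the 23 in PER, and so entered only through VEC, where they had to be high. Their counts and medians therefore support nothing about the list. Scaled to the genes used by every cell, 12 were higher than glia and 10 higher than PER. Of the SOXF factors, which specify endothelium, Sox17 had 48.2 CPM in VEC (30.2 to 73.0), 0 cuts in PER and 1.59 CPM in the glial classes. Sox18 had 76.7 CPM in VEC, 1.06 CPM in PER (1 cut) and 6.59 CPM in the glial classes, and Sox7 had 87.6 CPM in VEC, 7.43 CPM in PER and 5.29 CPM in the glial classes. All 3 SOXF genes were thus low outside VEC. Hhex, a homeobox factor of blood and endothelium, had 116 CPM in VEC, 11.7 CPM in PER and 1.66 CPM in the glial classes. Foxf2, Foxq1 and Foxl2 are forkhead genes of brain endothelium. Foxq1 had 158 CPM in VEC (123 to 199), 10.6 CPM in PER and 10.97 CPM in the glial classes. Foxf2 had 162 CPM in VEC, 19.1 CPM in PER and 5.94 CPM in the glial classes, and Foxl2 had 87.6 CPM in VEC, 4.24 CPM in PER and 2.86 CPM in the glial classes.

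Not all of these factors separated VEC from PER. Klf2, induced by blood flow, had 269 CPM in VEC (224 to 321), 207 CPM in PER (179 to 238) and 73.3 CPM in the glial classes. Foxc1, a forkhead factor of vessels and mesenchyme, had 136 CPM in VEC (104 to 174), 120 CPM in PER (98.8 to 144) and 19.2 CPM in the glial classes. Their levels in VEC and PER overlap within counting error. Nr2f2, the venous factor COUP-TFII, was the one factor of those that entered whose ratios lay below 1 against both, with 39.4 CPM in VEC (23.4 to 62.3), 73.2 CPM in PER (57.0 to 92.7) and 52.6 CPM in the glial classes. The intervals of Nr2f2 in VEC and PER overlap, and over the alternatives its ratio lay between 0.40 and 1.16 over PER and between 0.41 and 1.79 over glia, so it has no firm direction. Of these 29 genes, Heyl, a Notch target, had 0 cuts in VEC, against 36.1 CPM in PER and 39.96 CPM in the glial classes.

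**Figure D3:**
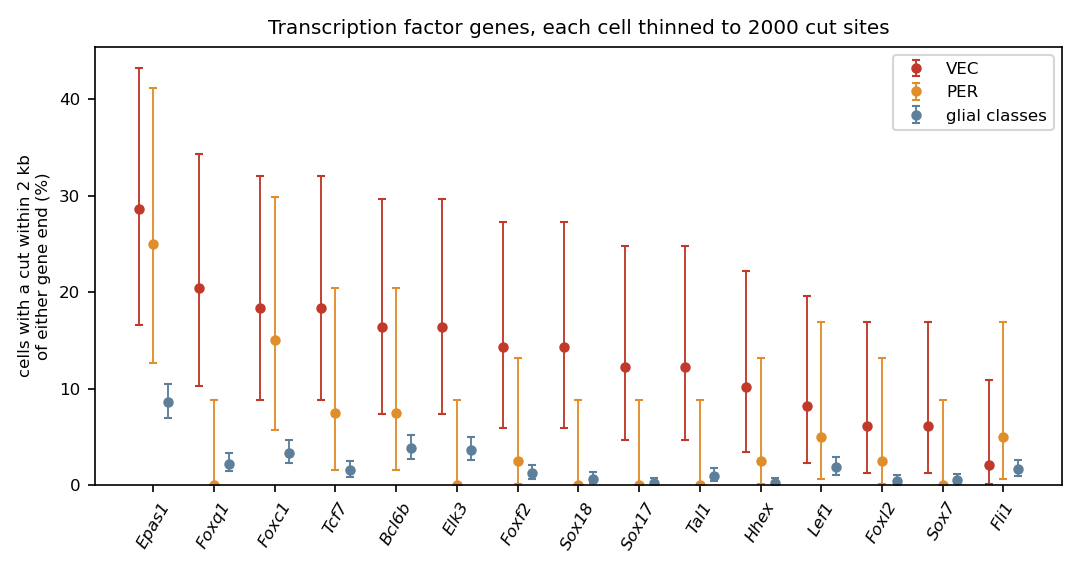
Share of cells (%) with at least 1 cut within 2 kb of either end of 15 of the 16 endothelial transcription factor genes that were 4-fold higher in VEC than in glia, after each cell was thinned to 2000 cut sites; points are VEC (49 cells), PER (40) and the glial classes (991), with Clopper-Pearson intervals at the 95% level. VEC lies above the glial classes for all 15 shown, which follows from how they were chosen on these same cells and supports nothing. VEC lies above PER for all but Fli1, with wide intervals. The choice of genes high in VEC favours this order as well, so it supports nothing either. At Foxc1, for example, the shares are 18.4% in VEC and 15% in PER, with overlapping intervals.

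Because VEC cells were shallow, the share of cells with a cut was also read at 2000 cut sites per cell, which left out 1 VEC cell and 3 glial cells. Esam had a cut in 34.7% of VEC cells, 7.5% of PER cells and 1.61% of glial cells, against 50%, 27.5% and 10.7% without thinning. Cldn5 had a cut in 20.4% of thinned VEC cells, 0 of 40 PER cells and 0.61% of glial cells. For PER the floor of 3 counts allows a share of up to 7.5%, and the Clopper-Pearson bound is 8.81%. Sox17 had a cut in 12.2% of thinned VEC cells, 0 PER cells and 0.20% of glial cells. At this depth most VEC cells had no cut near any 1 of these genes, and the order of VEC above PER and glia was kept for all 3.

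Genes of Wnt signalling at the barrier were open in VEC in part. Of 18 such genes, 17 entered each comparison, 7 were at least 4-fold higher than glia and 6 higher than PER, and 0 were lower, with median ratios of 3.28 over glia and 1.80 over PER, against 1.47 and 1.05 over all genes. The shares called higher over all genes were 3.45% against glia and 1.89% against PER. Of the 17, 7 had under 20 CPM in glia and 7 in PER, and so entered through VEC. These include all 7 genes called over glia and 5 of the 6 called over PER, so the counts support nothing about the list. Lef1 and Tcf7, the nuclear partners of beta-catenin, had 67.9 and 112 CPM in VEC, 19.1 and 22.3 CPM in PER and 7.79 and 13.2 CPM in the glial classes. The receptor side differed less: the receptor Fzd4 had 193 CPM in VEC, 107 CPM in PER and 58.7 CPM in the glial classes, and the co-receptor Lrp6 had 50.4 CPM in VEC, 63.7 CPM in PER and 56.2 CPM in the glial classes. Sox17, Foxf2, Foxq1, Lef1 and Tcf7 are among the genes that stand in both this list and that of the transcription factors.

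Of 18 genes in the list of blood-brain barrier transport, 13 entered each comparison. Against glia and against PER, 4 were at least 4-fold higher in VEC and 0 lower, with median ratios of 2.46 over glia and 1.90 over PER. All 4 called over glia and 3 of the 4 called over PER had under 20 CPM on the other side. They entered only through VEC, so the counts support nothing about the list. Over all genes 3.45% were higher than glia and 1.89% higher than PER. Slco1c1, Slc19a3 and Slc40a1 passed against both, Ramp2 against glia and Mfsd2a against PER. Slc19a3, a thiamine transporter, had 70.1 CPM in VEC, 7.43 CPM in PER and 4.999 CPM in the glial classes, and Slc40a1, the iron exporter ferroportin, had 116 CPM in VEC, 24.4 CPM in PER and 17.7 CPM in the glial classes. Slc40a1 fell below 4-fold when scaled to genes used by every cell, with ratios of 3.60 over glia and 3.57 over PER, and to 2.77 over PER with each cell counted at most once per peak. Slc22a8, the organic anion transporter OAT3, was below the limit to enter but had 35.0 CPM in VEC (16 cuts in 12 cells), with 1 cut each in PER and in the glial classes. Transporters that glia also use did not stand apart from glia. Slc2a1, the glucose transporter GLUT1, had 226 CPM in VEC (184 to 274), 119 CPM in PER and 226 CPM in the glial classes. Mfsd2a, a lipid transporter of barrier endothelium, had 70.1 CPM in VEC, 10.6 CPM in PER and 59.5 CPM in the glial classes.

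Of 20 genes for receptors of VEGF, angiopoietin and TGF-beta and related surface proteins, 13 entered against glia and 14 against PER. At least 4-fold higher in VEC were 8 against glia and 6 against PER, and 0 were lower, with median ratios of 4.24 over glia and 2.73 over PER. The shares over all genes were 3.45% and 1.89%. Of the called genes, 6 of the 8 over glia and 5 of the 6 over PER had under 20 CPM on the other side. Those entered only through VEC, so the counts support nothing about the list. Besides Flt1, Kdr, Tie1, Eng and Adgrl4, the called genes included Nrp2, a co-receptor of VEGF. Nrp2 had 87.6 CPM in VEC, 41.4 CPM in PER and 20.7 CPM in the glial classes. Acvrl1, the BMP receptor ALK1, was also called, with 98.6 CPM in VEC, 55.2 CPM in PER and 18.8 CPM in the glial classes. Scaled to the genes used by every cell, 4 receptor genes were higher than glia and 5 higher than PER. On that scale 6 genes of the Wnt list were higher than glia and 4 higher than PER, and in the transport list 3 were higher than each. S1pr1, the receptor for sphingosine 1-phosphate, had 184 CPM in VEC, 35.0 CPM in PER and 71.2 CPM in the glial classes, where ACNT1 reached 229 CPM, above VEC. Of 12 Notch genes, 10 entered each comparison, 2 were at least 4-fold higher than glia and 3 higher than PER, with 0 lower and median ratios of 2.22 over glia and 2.03 over PER. Of the called Notch genes, 1 of the 2 over glia and 2 of the 3 over PER entered only through VEC. On the other scale 1 was higher than glia and 3 higher than PER. Dll4, the ligand of arterial and tip cells, had 226 CPM in VEC (184 to 274), 35.0 CPM in PER and 22.2 CPM in the glial classes. Jag2, another ligand, had 72.3 CPM in VEC, 8.49 CPM in PER and 17.7 CPM in the glial classes. The receptor Notch1 went the other way against glia, with 158 CPM in VEC (123 to 199), 114 CPM in PER and 252 CPM in the glial classes.

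**Figure D4:**
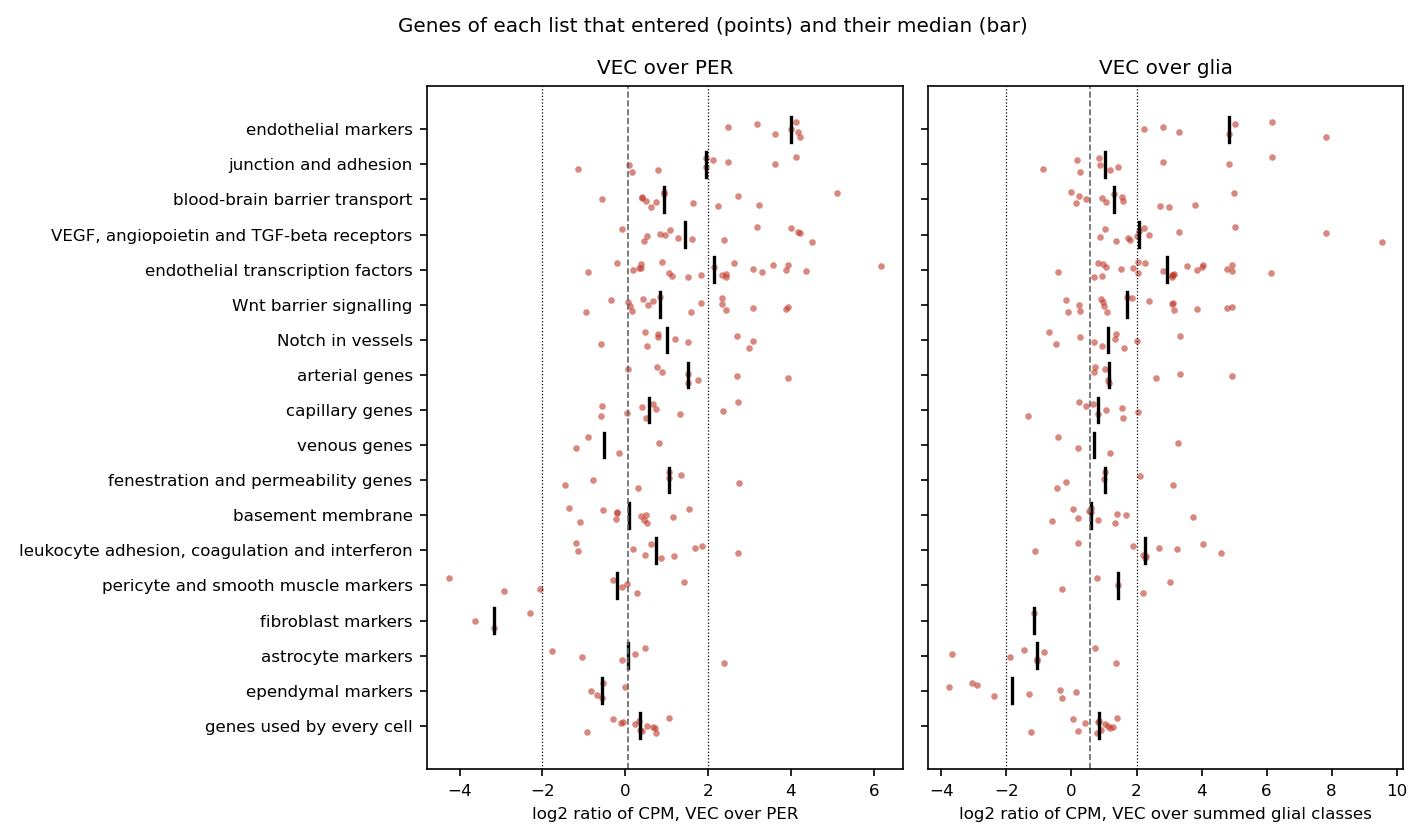
log2 ratio of CPM for the genes of each list that entered, VEC over PER (left) and VEC over the summed glial classes (right); points are genes, black bars the list medians, dashed lines the median over all genes (log2 0.07 and 0.56) and dotted lines 4-fold. Lists in which few genes entered, such as that of mature oligodendrocyte markers, are not drawn. Among the lists drawn, the endothelial marker and transcription factor lists have the highest medians in both panels, and the ependymal list has the lowest median against glia. In each panel 6 of the 7 markers entered only through VEC, as did 11 of 23 factors against PER and 14 of 24 against glia. The high medians of those lists therefore support nothing.

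Lists for parts of the vascular tree are set beside the same shares over all genes, 3.45% higher than glia and 1.89% higher than PER. Part of the genes called in these lists entered only through VEC. Of 15 arterial genes, 8 entered each comparison, 3 were at least 4-fold higher than glia (Dll4, Sox17 and Cxcl12) and 2 higher than PER, with 0 lower and median ratios of 2.21 over glia and 2.86 over PER, and the arterial genes Fbln5 and Mgp had 0 cuts in VEC. Of 12 venous genes only 4 entered each comparison and 1, Ephb4, was higher than glia, with 127 CPM in VEC, 72.2 CPM in PER and 13.2 CPM in the glial classes. Ephb4 is the receptor by which veins are told from arteries, and the venous medians were 1.71 over glia and 0.72 over PER. Of 12 capillary genes, 9 entered against glia and 10 against PER, with medians of 1.76 over glia and 1.5 over PER. Spock2, a proteoglycan gene, was at least 4-fold higher than both, and Mfsd2a higher than PER. Scaled to genes used by every cell, 0 capillary genes were higher than glia, 1 was lower and 1 was higher than PER, so the Spock2 call over glia was lost. Of 50 VEC cells, 28 had cuts near both an arterial and a venous gene, 14 near an arterial gene only and 5 near a venous gene only. A cut near an arterial gene was also found in 36 of 40 PER cells and 885 of 994 glial cells. Near a venous gene it was found in 35 PER cells and 675 glial cells. Of the arterial genes 15 had a peak near their ends, and of the venous genes 8. Such cuts therefore do not mark arterial or venous cells, and these numbers cannot show whether VEC holds either. Of 11 genes of fenestration and permeability, 6 entered against glia and 7 against PER, 2 were at least 4-fold higher than glia and 1 higher than PER, with 0 lower and medians of 2.03 over glia and 2.06 over PER. Plvap, the diaphragm protein of fenestrated vessels, had 28.5 CPM in VEC (15.2 to 48.7), 13.8 CPM in PER (7.35 to 23.6) and 13.9 CPM in the glial classes. Cavin2, a caveola protein, had 171 CPM in VEC, 25.5 CPM in PER and 19.7 CPM in the glial classes, while its relative Cavin3 had 37.2 CPM in VEC, 102 CPM in PER and 50.8 CPM in the glial classes.

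In the list of leukocyte adhesion, coagulation and interferon genes, 10 of 16 entered each comparison, and 7 were at least 4-fold higher than glia but 1 higher than PER, with 0 lower and medians of 4.85 over glia and 1.67 over PER. The shares over all genes were 3.45% against glia and 1.89% against PER. Of the called genes, 4 of the 7 over glia and the 1 over PER entered only through VEC. Scaled to the genes used by every cell, 3 were higher than glia. Thbd, the anticoagulant thrombomodulin, had 131 CPM in VEC, 86.0 CPM in PER and 7.89 CPM in the glial classes. Ly6e, an interferon-responsive surface protein, had 76.7 CPM in VEC, 11.7 CPM in PER and 3.18 CPM in the glial classes. The class I MHC genes H2-K1 and B2m had 134 and 129 CPM in VEC, 59.4 and 71.1 CPM in PER and 27.4 and 26.8 CPM in the glial classes. Of 14 basement membrane genes 1 was higher than glia (Itga1, an integrin subunit that binds collagen, with 98.6 CPM in VEC, 44.6 CPM in PER and 7.47 CPM in the glial classes) and 0 were 4-fold higher than PER, with medians of 1.52 over glia and 1.09 over PER. The collagen IV genes Col4a1 and Col4a2, which share a peak, had 61.3 and 67.9 CPM in VEC, 70.0 and 77.5 CPM in PER and 42.0 and 45.2 CPM in the glial classes.

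Summed over each list, markers of other cell types were lower in VEC than in the class named for that type, where the table has such a class. The ependymal list, for example, summed to 265 CPM in VEC and to between 828 and 997 CPM in the EP classes. Against the remaining classes VEC was not always lower. Over all genes, 3.45% were at least 4-fold higher and 4.96% at least 4-fold lower than glia. Against PER these shares were 1.89% and 3.79%. The pericyte and smooth muscle list summed to 337 CPM in VEC, 586 CPM in PER and 254 CPM in the glial classes. Of its 22 genes 8 entered against PER, 0 were at least 4-fold higher and 3 lower (Pdgfrb, Zic1 and Tbx18), with a median ratio of 0.88, and 5 entered against glia, of which 2 were higher. Pdgfrb, the PDGF receptor of pericytes, had 4.38 CPM in VEC (2 cuts in 1 cell), 83.8 CPM in PER and 8.60 CPM in the glial classes, and Abcc9 and Kcnj8, channel subunits of pericytes, had 0 cuts in VEC. The VEC sum came mainly from Ebf1, Notch3 and Myh11, with 96.4, 85.4 and 43.8 CPM in VEC against 79.6, 31.8 and 42.5 CPM in PER. No VEC cell had cuts near 3 or more of Pdgfrb, Rgs5, Abcc9, Kcnj8, Vtn and Notch3, against 5 of 40 PER cells and 27 of 994 glial cells, which were deeper. Rgs5 has no peak near its ends. The fibroblast list summed to 43.8 CPM in VEC, 327 CPM in PER and 98.5 CPM in the glial classes, and Col1a2 and Dcn had 0 cuts in VEC. The microglia and macrophage list summed to 10.95 CPM in VEC, 48.8 CPM in PER and 37.3 CPM in the glial classes, with 0 VEC cuts at P2ry12, Tmem119 and Trem2. Of 12 ependymal markers, 8 entered against glia, 4 were at least 4-fold lower in VEC and 0 higher. Their median ratio was 0.30 over glia and 0.67 over PER. Foxj1, the master factor of motile cilia, had 26.3 CPM in VEC (13.6 to 45.9), 38.2 CPM in PER and 221 CPM in the glial classes. The astrocyte list summed to 469 CPM in VEC, 349 CPM in PER and 630 CPM in the glial classes. Of its genes, 1 of 8 was at least 4-fold lower than glia and 0 higher, with 0 VEC cuts at Gfap and Slc1a2. Against PER 1 of 6 was at least 4-fold higher in VEC and 0 lower. Scaled to the genes used by every cell, 0 were higher than PER and 1 lower. The oligodendrocyte progenitor list summed to 140 CPM in VEC, 126 CPM in PER and 256 CPM in the glial classes, with Olig1, Olig2 and Sox10 at 0 cuts in VEC. The mature oligodendrocyte list summed to 28.5 CPM in VEC, 59.4 CPM in PER and 98.1 CPM in the glial classes. The neuron list summed to 52.6 CPM in VEC, 29.7 CPM in PER and 75.8 CPM in the glial classes. No doublet caller was run, and the part of mixed cells in the remaining signal of other types was not tested.

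Among themselves the VEC cells were alike in the share of cuts that fell in VEC peaks, that is, peaks with cuts in at least 5 VEC cells and at least 4-fold higher in VEC than in PER and in the glial classes. Cut sites in those peaks made up a median of 8.27% of a VEC cell's cut sites, between 4.06% and 12.2%, against 0.71% in PER (0.35% to 1.86%) and 0.55% in the glial classes (0.16% to 2.65%). The VEC range overlaps neither of the others. This share was used to pick the peaks, so it describes how evenly the signal is spread over cells and is no check of the class. Of the 50 VEC cells 43 had a cut near at least 1 endothelial marker, and the median was 3 markers. The same held for 20 of 40 PER cells (median 0.5) and 451 of 994 glial cells (median 0), which were deeper. The 7 VEC cells with none were mainly shallow: 6 were among the 25 VEC cells with fewest cut sites (1931 to 6941). The 5 deepest VEC cells held 25.4% of the VEC cut sites, and without them 371 genes were 4-fold higher than glia, against 354 with them.

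At the level of single peaks, 11996 peaks had a cut in at least 5 VEC cells. Of these 2388 (19.9%) were at least 4-fold higher in VEC than in the glial classes, 1917 (16.0%) at least 4-fold higher than in PER, and 1495 (12.5%) at least 4-fold higher than in both. The 1495 are the VEC peaks. They held 8.12% of VEC cut sites, 0.68% of PER cut sites and 0.57% of glial cut sites. Of them 466 (31.2%) had 0 cuts in PER, against 39.5% of all 96670 peaks. Among the other peaks with cuts in at least 5 VEC cells the share was 0.42%. The rule that chose the VEC peaks favours low PER levels, so this number supports nothing. A further 893 peaks were 4-fold above the glial classes but not above PER, and these took 4.98% of VEC cut sites, 2.69% of PER cut sites and 0.71% of glial cut sites.

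**Figure D5:**
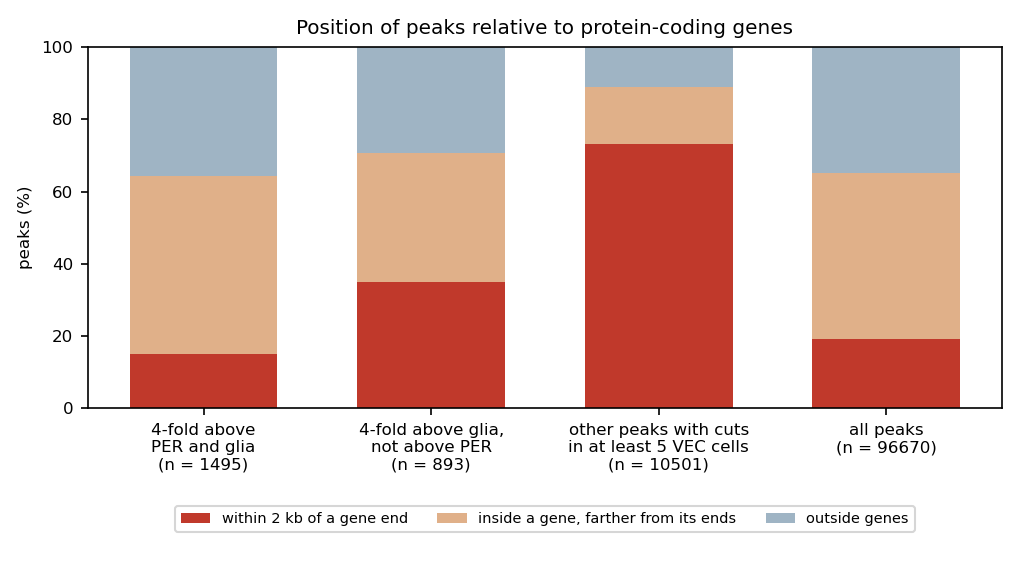
Share of peaks (%) by position relative to protein-coding genes, for the 1495 VEC peaks, the 893 peaks above glia but not above PER, the other peaks with cuts in at least 5 VEC cells, and all 96670 peaks. Of the VEC peaks 14.9% lie within 2 kb of a gene end, against 73.2% of the other peaks open in VEC cells.

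The VEC peaks lay mostly away from gene ends, which the rule that chose them did not use. Within 2 kb of a gene end were 14.9% of them, 49.4% were inside a gene farther from its ends and 35.7% outside genes. Of the 893 peaks above glia but not above PER, 35.1% lay near a gene end. Among the other 10501 peaks with cuts in at least 5 VEC cells, 73.2% lay near a gene end, while over all 96670 peaks 19.3% did. The VEC peaks were thus placed much like the whole peak set and unlike the rest of the peaks open in VEC cells. Their median width was 579 bases, against 1628 in those other peaks and 587 in all peaks, and wider peaks collect more cuts.

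The 10 VEC peaks highest above the glial classes, by the lower bound of the ratio, had 63.5 to 226 CPM in VEC, in 11 to 27 of its cells, and between 0 and 5 cuts in the glial classes. The first, chr5:105146467-105146868, lies 6881 bases from Gbp4, a guanylate-binding protein gene, and had 101 CPM in VEC, 1.06 CPM in PER and 0 glial cuts. Another at chr11:76081160-76081584, inside Vps53, had 74.5 CPM in VEC and 0 cuts in both of the others. The Tek peak at chr4:94746475-94746921 was the sixth. The peak at chr7:130657767-130658102 inside Tacc2 had 85.4 CPM in VEC, 11.7 CPM in PER and 0 glial cuts. The twelfth peak in this order, inside Slc7a1, the cationic amino acid transporter of barrier endothelium, at chr5:148392793-148393174, had 89.8 CPM in VEC, 0 cuts in PER and 1 glial cut, while the peak at the Slc7a1 start had 61.3 CPM in VEC, 46.7 CPM in PER and 20.4 CPM in the glial classes. This last gene was chosen after its values were seen.

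VEC peaks were also counted around the genes of each list. Within 50 kb of a gene or inside it, at least 1 VEC peak was found for 10.2% of all 21887 protein-coding genes. The share was 14 of 18 endothelial markers, 22 of 29 endothelial transcription factors, 17 of 20 receptor genes and 10 of 18 genes of barrier transport. For junction genes it was 9 of 16, for Wnt genes 10 of 18 and for capillary genes 7 of 12. Other vascular lists had less: fenestration 4 of 11, Notch 4 of 12, basement membrane 4 of 14, arterial 4 of 15 and venous 3 of 12. The list of leukocyte adhesion, coagulation and interferon genes had 5 of 16. For other cell types it was 2 of 22 pericyte and smooth muscle markers, 1 of 12 astrocyte markers and 0 of 12 ependymal markers. Among lists of other cells, oligodendrocyte progenitor markers, with 3 of 12, and genes used by every cell, with 3 of 14, also lay above the share of all genes. The median gene length was 44569 bases for the endothelial markers, 14801 for the transcription factors and 17169 for all genes, and longer genes take in more peaks. Tjp1, the tight junction scaffold ZO-1, had the most of the list genes with 7, although it had only 15.3 CPM in VEC at its ends. Sox17 and Egfl7 had 5 each, and Flt1, Eng, Ets1 and Elk3 had 4 each.

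Short runs of letters that resemble binding motifs were counted in promoters. Of the 121 genes that were 4-fold higher in VEC than in PER and in glia, 91 had a RefSeq promoter of 300 bases (250 before the start and 50 after), as did 17492 of all 21887 genes. On either strand, GGAAGT was found in 24.2% of the 91 and 25.1% of all, and CCGGAAG, which overlaps it in part, in 3.3% of the 91 and 11.9% of all. The SOX-type letters AACAAT were found in 12.1% of the 91 and 9.5% of all, the GATA-type letters AGATAA in 13.2% and 9.96%, the TCF/LEF-type letters CTTTGAT in 5.49% and 3.27%, and the forkhead-type letters TGTTTAC in 2.2% and 2.93%. The other letters searched were GGGNGTGG (KLF type, 19.8% of the 91 and 19.2% of all), TGANTCA (AP-1 type, 8.79% and 7.05%), TATTTATA (MEF2 type, 1.1% and 1.68%), GGAATG (TEAD type, 13.2% and 13.5%), GTTGCCA (RFX type, 2.2% and 4.2%), CATATG (E-box, 5.49% and 3.26%), TGACGTCA (CREB type, 2.2% and 2.33%) and GCGCATGCG (NRF1 type, 1.1% and 2.4%). Of the 14 runs of letters, the largest gap was that of CCGGAAG, held by 3 of the 91 promoters, and none was tested. The mean GC content was 57% in the 91 and 55.9% in all. All promoters include genes that could not be called. Of the genes that entered both comparisons, from which the 91 come, 7971 had a promoter, with a mean GC content of 61.9%. Among these 7971, GGAAGT was found in 28.1%, CCGGAAG in 19.4%, AACAAT in 5.31%, AGATAA in 5.31%, CTTTGAT in 2.41% and TGTTTAC in 2.36%. The mean number of CG dinucleotides was 13 in the 91, 22.8 in the 7971 and 15.3 in all. Most VEC peaks lie outside these windows.

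RNA of these genes in ependymal cells was read from the 2 bulk Smart-seq2 libraries named Foxj1_tdT_Uninj, of ependymal cells sorted from uninjured cord on a C57BL/6 background, in the authors' normalised counts. In bulk RNA, fewer cells of a type and less RNA per cell cannot be told apart. Of the 121 genes higher in VEC, 74 stood in that table, and 30 of the 74 (40.5%) were under 10 in both libraries, against 8.08% of the 9098 genes that entered both comparisons and stood in the table. Chromatin and RNA come from different cells, so this sets the lists side by side and tests nothing. Sox7, Tal1, Tcf7 and Slc19a3 were listed at 0 in both libraries. Kdr, whose start peak was cut in the EP classes, read 147.8 and 151.9, and Flt1 read 12.8 and 12.2.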

How the data were processed

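Of 31 samples, 1 single-cell ATAC library and the 2 Foxj1_tdT_Uninj bulk RNA libraries were used. The deposited matrix holds cut site counts per peak and cell (whole numbers, not normalized), and the deposited cell table gives class names, percent of fragments in peaks and TSS enrichment, a ratio of signal at gene starts over flanking signal, as the authors computed them. The bulk values are the authors' normalised counts, a signal scaled before deposit in a way not given in the sources used here. The build was mm10 and the tools were deepTools, SAMtools, Bowtie2, Cell Ranger and Cell Ranger ATAC, per the submitters' processing notes, which give these no roles or versions, while peak calling and clustering settings are not given in the sources used here. Peak coordinates are those of the deposited peak names.

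Counts were summed per class and scaled to CPM. A gene's peaks were those within 2 kb of either end of 21887 RefSeq protein-coding genes (GRCm38.p6). Genes entered at a mean of at least 20 CPM over both sides. A side at 0 was set to 3 counts over the class for the ratio, but not for its interval. Intervals are exact Poisson for CPM, conditional binomial for ratios and Clopper-Pearson for shares. The ratio step was tested on simulated data. Python 3.11.15, numpy 2.4.6, pandas 2.3.3, scipy 1.17.1 and matplotlib 3.10.9 were used. No doublet caller was run.

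Named were Cldn5, Pecam1 and Flt1, members of the endothelial lists by the lower bound of the VEC to glia ratio (the 4 highest and any that lay the other way), the 10 highest and 10 lowest genes of each comparison, and the 10 leading peaks. List members with a contrasting level were also named and were chosen after their values were seen. Members and lists were chosen with earlier results of these data known. The alternatives varied the window, the counting of cuts, the weight of cells and classes, the scaling, the filter, the fold and the cells included. Some genes counted in the lists are not reported here by name.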

Additional observations from a re-analysis of the deposited data

How the results depend on the processing

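Ratios were recomputed for 27 genes and 5 lists. All 49 single-gene ratios and 5 list medians that were at least 4 kept a direction above 1 under the alternatives run for them. Of these, 7 single-gene ratios fell below 4-fold in at least 1 alternative (Cdh5, Slc40a1 and Kdr over glia, and Cdh5, Slc40a1, Tal1 and Tcf7 over PER), as did 2 list medians. Other named genes were not recomputed, and the counts depended on the filter, the fold and the scale. The 4 counts are given in the order higher than PER, lower than PER, higher than glia and lower than glia, and were 199, 399, 354 and 508 as reported. They were 129, 601, 150 and 847 scaled to the genes used by every cell, 102, 120, 198 and 162 at a mean of at least 40 CPM, 535, 781, 1060 and 939 with at least 1 cut, and 890, 1215, 2455 and 944 at 2-fold. With peaks over the whole gene body, 638 were lower than PER and 1047 lower than glia, and with each cell counted at most once per peak, 270 were lower than glia. Of 1495 VEC peaks, 645 had a cut in at least 10 VEC cells and 760 passed at 8-fold. The filter, fold and cell settings change how many genes or peaks can pass by construction; for the other settings the cause was not tested. Of the ratios of single genes under the alternatives, 580 stayed within the counting interval and 88 moved past it, and of the list medians 118 and 12 did. The filters, the 2-fold setting and the pericyte condition could not change a single-gene ratio. Of the 580, they gave 54 (at least 1 cut), 38 (at least 40 CPM), 54 (2-fold) and 54 (pericyte condition) by construction. For list medians the 2-fold setting and the pericyte condition gave 10 each of the 118 in the same way. The totals that stayed are therefore no measure of stability. Thinning lowered all shares of cells, 24 of them past their interval and 2 within it. No VEC cell met the pericyte condition, so leaving such cells out changed nothing. Depth limits what VEC can show: 3 cuts are 6.57 CPM, and with 1 library nothing is known of the spread between animals. No paired analysis was possible because 1 library was compared within itself and no test was made.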

Other observations

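The Hox clusters, homeobox genes that mark position along the body axis, were less open in VEC than in the other classes. These families were chosen after their values were seen. Over all peaks of the HoxA cluster VEC had 186 CPM (149 to 230), PER 773 CPM and the glial classes 783 CPM. HoxB had 322 CPM in VEC, 915 CPM in PER and 958 CPM in the glial classes, and HoxC had 70.1 CPM in VEC, 527 CPM in PER and 570 CPM in the glial classes. HoxD stood apart from these, since PER was also low: it had 72.3 CPM in VEC (49.8 to 101), 90.2 CPM in PER (72.0 to 111) and 354 CPM in the glial classes. At 2000 cut sites per cell, 22.4% of VEC cells, 80% of PER cells and 68.8% of glial cells had a cut in HoxA, so VEC was again the lowest with the cut sites per cell made equal, while PER stood above glia.

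Zic2 and Zic5, zinc finger genes of neural development that lie side by side, were open in both vascular classes. Zic2 had 186 CPM in VEC, 151 CPM in PER and 8.28 CPM in the glial classes, and Zic5 had 173 CPM in VEC, 84.9 CPM in PER and 14.9 CPM in the glial classes. Zic1 had 19.7 CPM in VEC, 81.7 CPM in PER and 12.2 CPM in the glial classes, where the astrocyte classes ACNT1 and ACNT2 had 93.85 and 64.0 CPM. Among GTPase genes of the Gbp and Gimap families, also chosen after their values were seen, 4 of 7 that entered were at least 4-fold higher in VEC than in glia. Against PER 2 of 8 were higher, and the shares of all genes were 3.45% and 1.89%. How many of these genes entered only through VEC was not counted, and with families chosen in this way the counts support nothing about them. Gbp3 had 83.2 CPM in VEC, 19.1 CPM in PER and 19.4 CPM in the glial classes. With under 20 CPM on the other side, Gbp3 entered both comparisons only through VEC.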
